A study of Homo sapiens with 4 samples.

Results

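The genes described here are 31 genes of glucose uptake, glycolysis, lactate handling and the pentose phosphate pathway, taken by symbol from a count table of 59050 genes, by a rule that uses no measured value but was written with earlier results of these data known. RNA was sequenced from RCC4, an established human clear cell renal cell carcinoma (ccRCC) line, carrying a doxycycline-inducible short hairpin RNA against PML (shPML) or a scrambled hairpin (shCTRL). Both groups received doxycycline at 100 ng/ml for 96 h. There were 2 libraries per group, one of each from each of 2 experiments with independent lentiviral infections, and replicate numbers were read as experiments. The cells were puromycin-selected populations rather than clones, and 1 hairpin against PML was used, so an effect of the hairpin sequence cannot be told apart from the loss of PML. The comparison asked which genes of the pathway differed between shPML and shCTRL within each experiment.

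Glucose enters cells through the transporters encoded by SLC2A genes and is split by the glycolytic enzymes into pyruvate, which is either reduced to lactate and exported with protons by SLC16A carriers or oxidised in mitochondria. The pentose phosphate pathway branches off at glucose 6-phosphate and supplies NADPH and ribose for nucleotides. In ccRCC, loss of the VHL tumour suppressor leaves hypoxia-inducible factors active, and many glycolytic genes are among their known targets. PML is the scaffold protein of PML nuclear bodies.

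The libraries held between 27781193 and 69870617 counted reads, and the 31 genes took between 2.46% and 2.78% of them. PML (chr15:73994673-74047812, plus strand, GRCh38) was measured at 93.1 and 136 CPM (counts scaled to a common library size and normalised by TMM) in shCTRL replicates 1 and 2 and at 54.9 and 87.6 CPM in shPML replicates 1 and 2. Its log2 fold change was -0.70 ± 0.11 (SE, n = 2 per group; adjusted p = 4.19e-07 with the experiment as a block and 0.320 without). Of 9 markers of renal carcinoma epithelium, all were above 1 CPM in every library. The library labelled shPML replicate 2 stood apart in a set of 15 markers of myeloid blood cells and macrophages. Their summed level was 319 CPM there and between 2.90 and 3.69 CPM in the other 3 libraries, and 14 of the 15 were over 1 CPM, led by LYZ, LAPTM5 and CD14 at 85.4, 57.6 and 42.8 CPM. The T cell marker CD3E had no reads in it. The myeloid set was chosen after these values were seen, and its part in the results below was not tested. Fitted values are therefore followed by the log2 ratio within replicate 1 alone, whose 2 libraries held 2.90 and 3.39 CPM of these markers.

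Levels per kilobase of exon differed widely among the 31 genes. GAPDH, the glyceraldehyde 3-phosphate dehydrogenase, was highest, with a mean over the 4 libraries of 4085 CPM per kilobase. It was followed by ENO1 (enolase) at 1549, PKM (pyruvate kinase) at 1151, LDHA (lactate dehydrogenase A) at 1007, TPI1 at 537 and PGK1 at 429 CPM per kilobase. The ranges of PKM and LDHA overlapped over the libraries, as did those of TPI1 and PGK1, so their order was not resolved. From SLC2A1 at 200 down to HK1 at 59.8 CPM per kilobase, each gene's range overlapped that of the next. PDK2, ALDOA, PFKFB2 and PDK3 lay between 1.67 and 2.23 with overlapping ranges, and the lowest was FBP1, the gluconeogenic fructose 1,6-bisphosphatase, at 0.179 CPM per kilobase. FBP1 had 1 and 0 reads in shCTRL and 2 and 33 reads in shPML replicates 1 and 2. It failed the filter on low counts, its reads sit in the library with the myeloid markers, and no fold change is given.

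**Figure D1:**
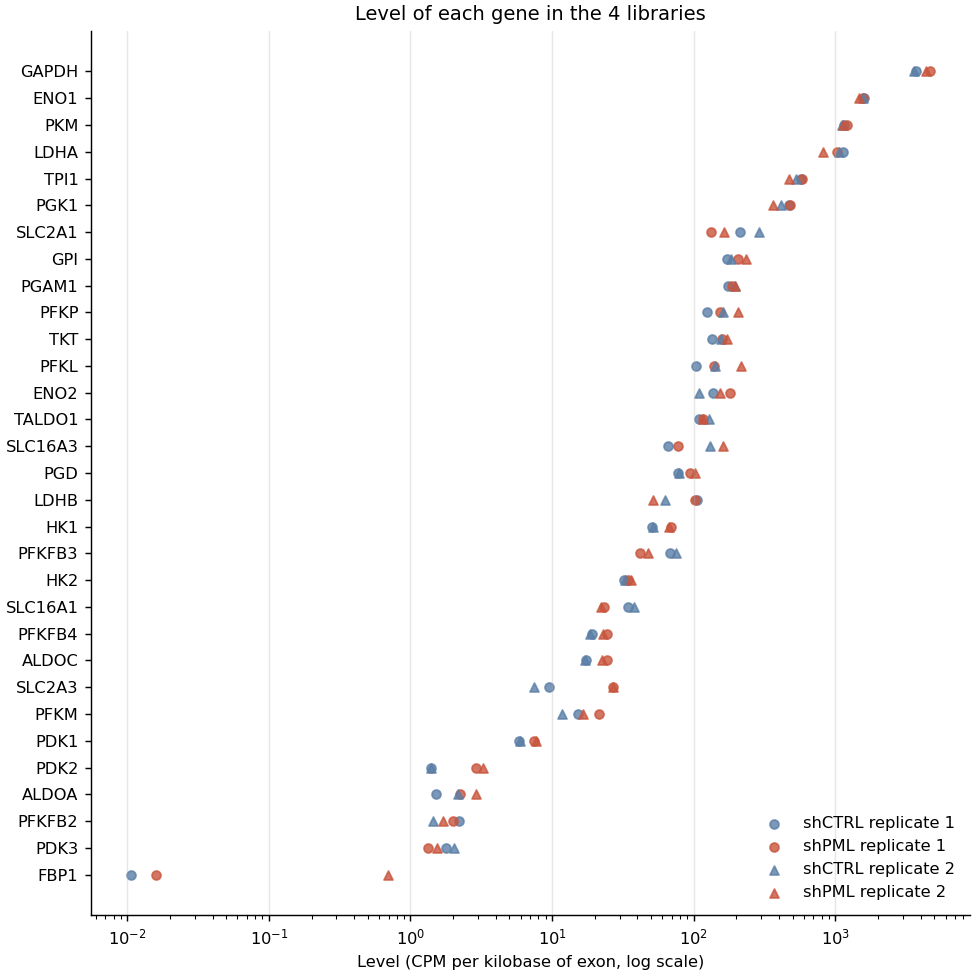
Level of each of the 31 genes in the 4 libraries in CPM per kilobase of exon (log axis), with shCTRL in blue, shPML in red, circles for replicate 1 and triangles for replicate 2. GAPDH, ENO1, PKM and LDHA lead, and FBP1, which is not drawn at its 0 in shCTRL replicate 2, is lowest.

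Of the 30 genes tested, 3 were called higher (SLC2A3, PDK2 and PFKL) and 3 lower (SLC2A1, PFKFB3 and SLC16A1) in shPML. A call required a log2 fold change larger than 0.5 in either direction together with an adjusted p below 0.05. The same rule called 8.57% of all 16516 genes tested higher and 10.5% lower, so the share among the 30 was close to that over all genes in both directions. The test was the quasi-likelihood test of edgeR with the experiment as a block. Without the block it called SLC2A3 alone among the 30 (0.0787% of all genes higher and 0.333% lower). With the size of the change left out, 14 of the 30 were higher and 5 lower, against 14.5% and 15.7% of all genes. The 30 were read far more deeply than most genes, with a median level of 298 CPM against 17.2 CPM, and no comparison with genes of matched level was made. The median log2 fold change was 0.24 over the 30 genes and 0.0042 over all genes. Over the 30 genes it was 0.24 within replicate 1 and 0.26 within replicate 2. Of the 30 values, 20 were above 0 and 10 below, against 8315 above and 8201 below over all genes. In 25 of the 30 the direction was the same in both experiments (83.3%, against 74.4% of all genes). The shPML and shCTRL libraries did not overlap in 66.7% of the 30 genes, against 48.0% of all genes. With 2 libraries per group, groups that lie apart are thus common.

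**Figure D2:**
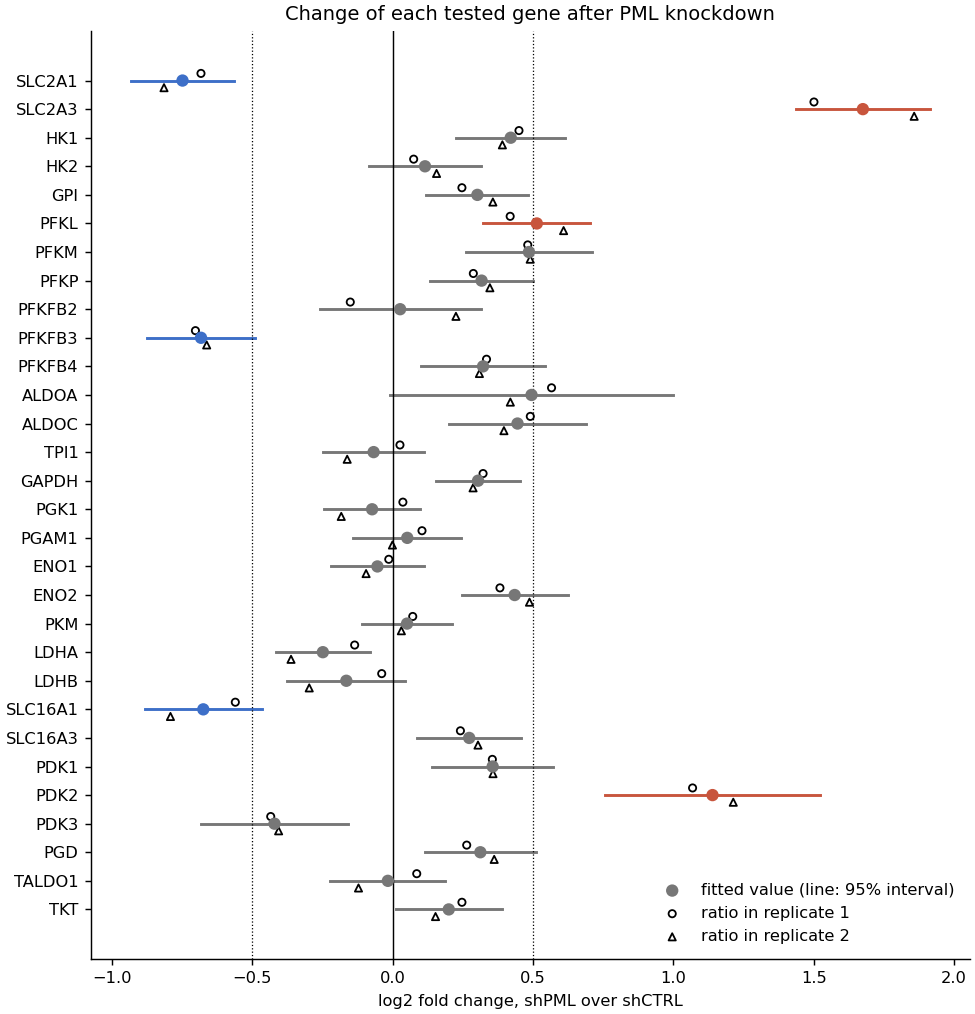
Log2 fold change of shPML over shCTRL for the 30 tested genes in pathway order, with the fitted value, its 95% interval, and the ratio within replicate 1 (circle) and replicate 2 (triangle). Dotted lines mark 0.5 in both directions, red and blue mark the 3 genes called higher and the 3 called lower, and SLC2A3 lies farthest from 0 at 1.68.

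The 2 glucose transporters moved in opposite directions. SLC2A1 (chr1:42925375-42959176, minus strand) encodes GLUT1, the main glucose carrier of many tumour cells, and was measured at 846 and 1154 CPM in shCTRL and at 527 and 656 CPM in shPML replicates 1 and 2. Both shPML libraries were below both shCTRL libraries, and the fitted log2 change was -0.75 ± 0.09 (SE; edgeR, adjusted p = 1.05e-09), with -0.68 in replicate 1 and -0.81 in replicate 2. SLC2A3 (chr12:7919230-7936187, minus strand) encodes GLUT3, a carrier with high affinity for glucose best known from neurons, and was measured at 36.5 and 28.4 CPM in shCTRL and at 103 CPM in each shPML library. Its log2 fold change was 1.68 ± 0.12 (SE; edgeR, adjusted p = 4.93e-18), with 1.50 in replicate 1 and 1.86 in replicate 2. Without shPML replicate 2 and without the block, its fold change was 1.67 (adjusted p = 0.175) and that of SLC2A1 was -0.92 (adjusted p = 0.317). SLC2A14, the close copy of SLC2A3, had 4 reads in 1 library and 0 in the others. Per kilobase, SLC2A1 remained the more abundant transcript in every library, and SLC2A3 went from 4.30% and 2.50% of the sum of both in shCTRL to 17.0% and 14.0% in shPML. That sum was 222 and 297 CPM per kilobase in shCTRL and 159 and 192 in shPML.

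**Figure D3:**
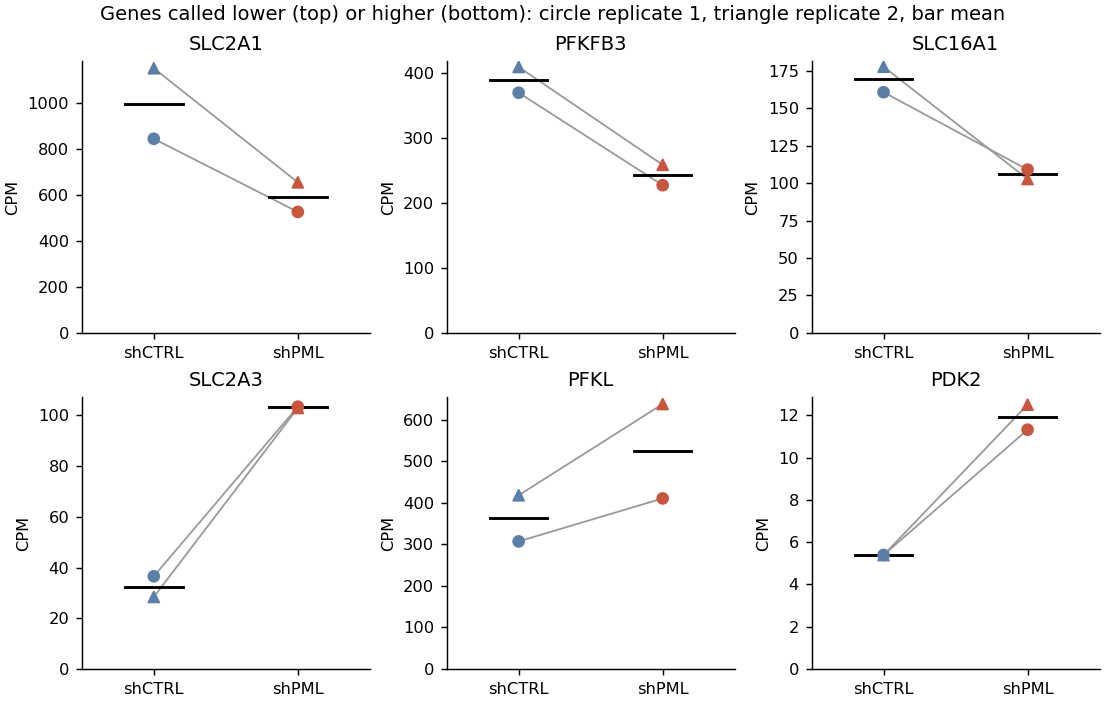
CPM in the 4 libraries for the 3 genes called lower (top row) and the 3 called higher (bottom row), with lines joining libraries of the same experiment and bars at the mean. SLC2A3 sat at 103 CPM in both shPML libraries, and PFKL is the gene whose groups overlap, since 410 CPM in shPML replicate 1 is below 418 CPM in shCTRL replicate 2. Of all genes tested, 48.0% had groups that did not overlap.

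From hexokinase to phosphofructokinase, 5 of 6 genes had positive fold changes with an adjusted p under 0.05, against 14.5% of all genes. PFKL alone passed the size threshold. The genes of the pathway were read far more deeply than most, and no comparison with genes of matched level was made. HK1, the widely expressed hexokinase that commits glucose to metabolism, was measured at 238 and 240 CPM in shCTRL and at 325 and 314 CPM in shPML. Its log2 fold change of 0.42 ± 0.10 (SE; edgeR, adjusted p = 0.000426; 0.45 in replicate 1) was below the threshold of size. HK2, the inducible hexokinase, was at 193 CPM in both shCTRL libraries and at 203 and 215 CPM in shPML, a change of 0.12 with a 95% interval from -0.08 to 0.31 (0.075 in replicate 1). GPI, which turns glucose 6-phosphate into fructose 6-phosphate, had a log2 fold change of 0.30 (adjusted p = 0.00712; 0.25 in replicate 1).

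Phosphofructokinase, the main control point of glycolysis, is encoded by PFKL, PFKM and PFKP. PFKL (chr21:44300053-44327373, plus strand) was measured at 307 and 418 CPM in shCTRL and at 410 and 638 CPM in shPML, so the groups overlapped and the rise shows only within experiments. Its log2 fold change was 0.51 ± 0.10 (SE; edgeR, adjusted p = 1.49e-05), with 0.42 in replicate 1, below the threshold, and 0.61 in replicate 2. PFKL also differed between the experiments, by 0.54 on the log2 scale (adjusted p = 9.4e-06), and its adjusted p was 0.401 without the block. PFKM was just under the threshold at 0.49, with nearly equal ratios of 0.48 and 0.49 in the experiments, and passed it under upper quartile normalisation and with total counts only, at 0.52 and 0.51. PFKP had a log2 fold change of 0.32 (edgeR, adjusted p = 0.00527 with the block and 0.541 without), with 0.29 in replicate 1. The groups of PFKP overlapped as well, and it differed between the experiments by 0.39 on the log2 scale (edgeR, adjusted p = 0.000746). In each experiment the summed level of the 3 genes was higher in shPML, at 313 against 244 CPM per kilobase in replicate 1 and at 437 against 314 in replicate 2, and PFKP and PFKL together made up most of it in every library.

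The PFKFB enzymes make and remove fructose 2,6-bisphosphate, the strongest activator of phosphofructokinase. PFKFB3 (chr10:6144934-6254644, plus strand), the isoform with the highest kinase activity, was measured at 370 and 409 CPM in shCTRL and at 227 and 259 CPM in shPML. The groups were apart, and the log2 fold change was -0.68 ± 0.10 (SE; edgeR, adjusted p = 4.64e-08), with -0.70 in replicate 1 and -0.66 in replicate 2. PFKFB4, another isoform, moved the other way below the threshold of size, by 0.32 (adjusted p = 0.0209; 0.33 in replicate 1). PFKFB3 thus went from 76.0% and 79.1% of the summed level of the 3 genes per kilobase to 61.4% and 66.0%, and PFKFB4 from 21.5% and 19.4% to 35.7% and 31.7%. PFKFB2, at 13.3 to 20.2 CPM, was lower in shPML in replicate 1 and higher in replicate 2 (-0.15 and 0.23).

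Of the 9 genes from aldolase to pyruvate kinase, none was called. The 3 with an adjusted p under 0.05 were GAPDH, ALDOC and ENO2, all with positive fold changes, beside 14.5% of all genes higher at that level. GAPDH, often used as a reference transcript, shares 25.8% of its exon bases with AC006064.4 on the other strand and was measured at 6056 and 5887 CPM in shCTRL and at 7572 and 7182 CPM in shPML. The shPML values were above the shCTRL values in both experiments, and the fitted log2 change was 0.30 ± 0.08 (SE; edgeR, adjusted p = 0.00101; 0.32 in replicate 1). With GAPDH left out, the share of all reads taken by the 31 genes was 1.93% in shCTRL and 2.002% in shPML in replicate 1, and 1.89% and 1.86% in replicate 2. ENO2, the enolase known from neurons, had a log2 fold change of 0.43 (adjusted p = 0.000185; 0.38 in replicate 1), and its share of the sum with ENO1 per kilobase was 8.005% and 6.49% in shCTRL and 10.3% and 9.41% in shPML. ALDOC, an aldolase known from brain, had a log2 fold change of 0.45 (adjusted p = 0.00315; 0.49 in replicate 1).

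The other abundant enzymes of this stretch differed little. ENO1 was measured at 2920 and 2897 CPM in shCTRL and at 2893 and 2713 CPM in shPML, a change of -0.05 with a 95% interval from -0.22 to 0.11 (-0.013 in replicate 1). PKM, with a change of 0.05 and an interval from -0.11 to 0.21, and TPI1, PGK1 and PGAM1, with changes of -0.07, -0.07 and 0.05, also had intervals that included 0. Their ratios in replicate 1 were 0.072 for PKM, 0.026 for TPI1, 0.037 for PGK1 and 0.10 for PGAM1. ALDOA, the main aldolase of many tissues, was recorded at only 3.51 to 6.73 CPM, and 70.5% of its exon bases lie under another gene on the same strand, AC093512.2. Reads in shared exons may not be assigned to either gene, so neither its level nor its log2 fold change of 0.50 (adjusted p = 0.136; 0.57 in replicate 1) can be read with confidence.

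At the lactate step, LDHA was measured at 3144 and 2953 CPM in shCTRL and at 2864 and 2298 CPM in shPML. Both values of shPML were below both of shCTRL, and the fitted log2 change was -0.25 ± 0.08 (SE; edgeR, adjusted p = 0.0176), which did not reach the threshold of size, with -0.13 in replicate 1 and -0.36 in replicate 2. DESeq2 with the block gave an adjusted p of 0.0682. LDHB, the form associated with lactate use, showed no change past its error (-0.16, interval from -0.37 to 0.05; -0.039 in replicate 1) and was lower in replicate 2 than in replicate 1 by 0.86 on the log2 scale. Its level is uncertain, since 56.2% of its exon bases are shared with AC010197.2 on the same strand.

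The lactate carriers SLC16A1 and SLC16A3 differed in direction. SLC16A1 (chr1:112911847-112956353, minus strand) encodes MCT1, which carries lactate in either direction, and was measured at 161 and 178 CPM in shCTRL and at 109 and 103 CPM in shPML. The groups were apart, with a log2 fold change of -0.67 ± 0.10 (SE; edgeR, adjusted p = 3.52e-07), -0.56 in replicate 1 and -0.79 in replicate 2. SLC16A3 encodes MCT4, the carrier known for lactate export from glycolytic cells, and was measured at 339 and 678 CPM in shCTRL and at 401 and 837 CPM in shPML. Its levels split by experiment rather than by hairpin, with a difference of 1.03 on the log2 scale between experiments (adjusted p = 1.12e-13) beside 0.27 between shPML and shCTRL (adjusted p = 0.0193; 0.24 in replicate 1). SLC16A1 made up 34.4% and 22.5% of the sum of both carriers per kilobase in shCTRL and 23.1% and 12.0% in shPML, while the sum itself was 100.1 and 169 CPM per kilobase in shCTRL and 101 and 184 in shPML.

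The pyruvate dehydrogenase kinases switch off the complex that feeds pyruvate into the citric acid cycle. PDK2 (chr17:50094737-50112152, plus strand), a widely expressed form, was measured at 5.39 CPM in both shCTRL libraries and at 11.3 and 12.5 CPM in shPML. The shCTRL libraries held 292 and 194 reads of PDK2, so their near equality is no measure of spread. Both shPML libraries were above both shCTRL libraries. The log2 fold change of PDK2 was 1.14 ± 0.19 (SE), with 1.07 in replicate 1 and 1.21 in replicate 2 (edgeR, adjusted p = 2.11e-06 with the block and 0.0782 without). Of its exon bases, 54.6% are covered by SAMD14 on the other strand, which itself had between 3 and 14 reads. PDK1, the hypoxia-induced form and the most abundant of the 3, was at 82.6 and 85.2 CPM in shCTRL and at 106 and 109 CPM in shPML, a log2 change of 0.36 (adjusted p = 0.00738; 0.36 in replicate 1). PDK3 was lower in both experiments, by 0.43 and 0.41 on the log2 scale, and its fitted value of -0.42 (adjusted p = 0.00997, and 0.0913 with DESeq2 and the block) did not reach the threshold. PDK2 took 15.5% and 14.8% of the summed level of the 3 kinases per kilobase in shCTRL and 25.1% and 26.0% in shPML, and PDK3 19.9% and 21.6% against 11.3% and 12.3%.

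**Figure D4:**
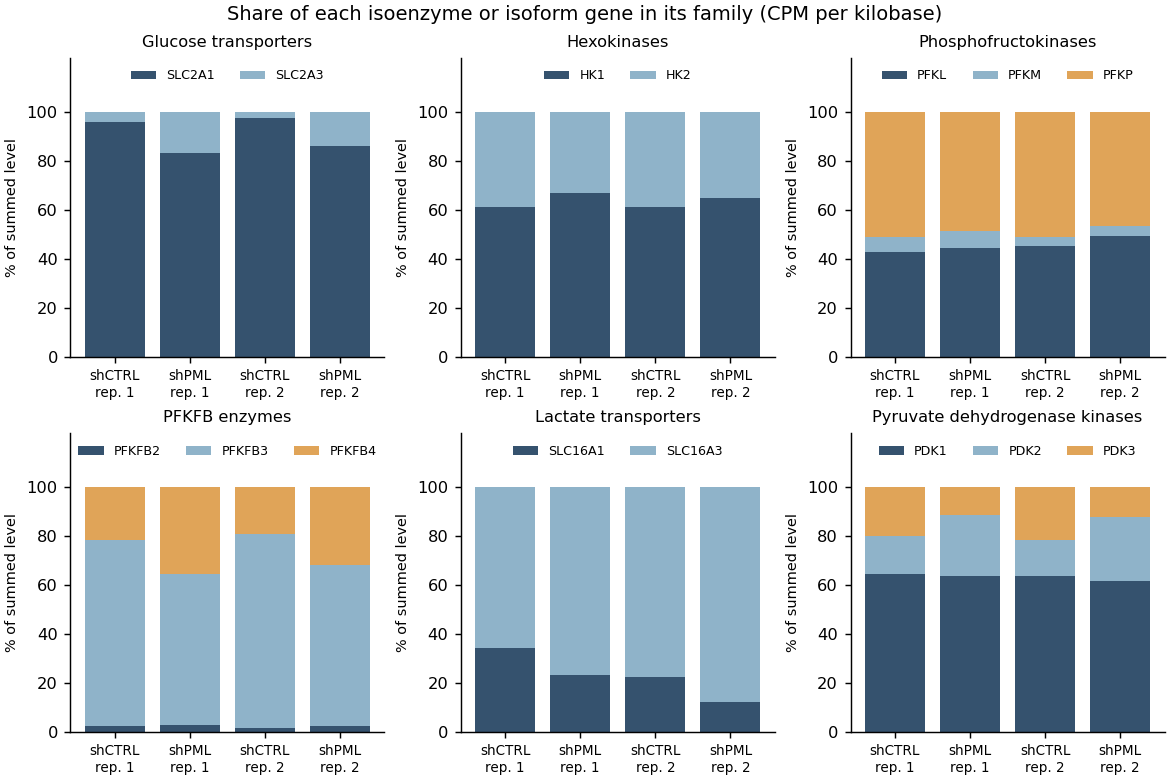
Share of each gene in the summed level (CPM per kilobase) of its family in the 4 libraries, for glucose transporters, hexokinases, phosphofructokinases, PFKFB enzymes, lactate transporters and pyruvate dehydrogenase kinases. In both experiments SLC2A3, PFKFB4, SLC16A3 and PDK2 took a larger share in shPML and SLC2A1, PFKFB3, SLC16A1 and PDK3 a smaller one.

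Of the 3 pentose phosphate genes, none was called. PGD, which makes NADPH in the oxidative branch, was measured at 176 and 179 CPM in shCTRL and at 212 and 230 CPM in shPML, a log2 change of 0.31 (adjusted p = 0.0115; 0.26 in replicate 1). The enzymes of the non-oxidative branch, TKT and TALDO1, had log2 fold changes of 0.20 (adjusted p = 0.104; 0.25 in replicate 1) and -0.02 (adjusted p = 0.930; 0.086 in replicate 1).

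Fewer cells of a kind and less RNA per cell cannot be told apart in these bulk samples. With size alone as the measure, 3 of the 30 genes were above 0.5 and 3 below -0.5 within replicate 1, against 14.5% and 17.9% of all genes, and again 3 and 3 within replicate 2, against 20.2% and 20.5%. Within replicate 1 these included 5 of the 6 genes called in the fit, all but PFKL. The fit used the same libraries and the same threshold of size, so this overlap is no separate check of the calls. Between the experiments, 2 of the 30 genes were called higher in replicate 2 (SLC16A3 and PFKL) and 1 lower (LDHB), against 8.93% and 4.53% of all genes. Without the block, the adjusted p was 0.174 for SLC2A1, 0.123 for PFKFB3, 0.112 for SLC16A1 and 0.0782 for PDK2.

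Stretches upstream of the start site were read from the RefSeq promoter table (GRCh38.p14), which holds 28 of the 31 genes. Hypoxia-inducible factors are known to bind DNA at a core that reads ACGTG or GCGTG. In the 250 bases before the start site nearest to the 5′ end of the counted gene, ACGTG stood on either strand in 11 of the 28 genes (39.3%), against 18.5% of all 35116 windows of that length. With GCGTG included, 16 of the 28 held a match, against 43.2% of all windows. Each of the 28 genes enters with 1 window, while the 35116 windows include several starts of some genes. The shares are thus of unlike units, and no enrichment was tested. The windows of SLC2A1 and PFKFB3, called lower, and of LDHA and PDK1, whose changes stayed below the threshold of size, are shown to set genes without and with ACGTG side by side, 5′ to 3′, with ACGTG on either strand in capitals:
SLC2A1, chr1:42958869-42959118, minus strand: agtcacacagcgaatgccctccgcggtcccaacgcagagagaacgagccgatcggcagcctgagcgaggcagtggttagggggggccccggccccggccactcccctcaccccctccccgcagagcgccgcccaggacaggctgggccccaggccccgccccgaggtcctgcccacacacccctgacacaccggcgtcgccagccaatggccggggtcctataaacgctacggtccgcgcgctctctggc
PFKFB3, chr10:6144671-6144920, plus strand: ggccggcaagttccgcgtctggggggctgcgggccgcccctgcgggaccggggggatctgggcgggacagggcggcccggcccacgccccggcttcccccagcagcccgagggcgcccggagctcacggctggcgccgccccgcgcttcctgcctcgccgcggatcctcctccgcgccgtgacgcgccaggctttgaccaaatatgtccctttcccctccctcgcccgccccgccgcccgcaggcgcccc
LDHA, chr11:18394313-18394562, plus strand: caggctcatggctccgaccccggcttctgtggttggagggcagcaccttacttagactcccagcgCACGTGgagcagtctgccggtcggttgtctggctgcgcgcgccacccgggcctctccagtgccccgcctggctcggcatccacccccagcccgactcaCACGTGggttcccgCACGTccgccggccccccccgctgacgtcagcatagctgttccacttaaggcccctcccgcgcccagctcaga
PDK1, chr2:172555840-172556089, plus strand: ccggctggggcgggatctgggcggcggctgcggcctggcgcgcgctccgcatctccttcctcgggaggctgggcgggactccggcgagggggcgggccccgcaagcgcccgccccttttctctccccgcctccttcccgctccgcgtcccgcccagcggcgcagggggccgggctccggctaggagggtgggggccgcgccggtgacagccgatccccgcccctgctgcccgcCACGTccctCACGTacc
LDHA held 5 matches to ACGTG and PDK1 held 2, counted on each strand, so that a single CACGTG gives 2 matches. SLC2A1, PFKFB3, PFKL and PDK2, the 4 called genes in the table, held 0 matches to ACGTG in these windows, while PFKFB3 and PFKL each held 1 match to GCGTG, left in lower case. PKM, TPI1, PGAM1 and TALDO1, which were not called, also held 0 matches to ACGTG, and 11 of the 28 genes held a match. No link between matches and calls was tested, and the start sites used in RCC4 were not determined. Sequence outside the windows was not searched. A match is a description of the letters and no evidence of binding.

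Around these 31 genes, 132 further genes of the same metabolism were looked up in 8 lists, and 104 were tested. Of these, 8 were called higher and 17 lower, against 8.57% and 10.5% of all genes tested. Without the block 0 were called higher and 1 lower (PRPS2), against 0.0787% and 0.333% of all genes. The counts per list below stand beside these same shares, and no list was tested as a set. Of 9 other pentose phosphate genes tested, 0 were called higher and 4 lower. PRPS2, a phosphoribosyl pyrophosphate synthetase, was measured at 94.4 and 125 CPM in shCTRL and at 12.2 and 17.0 CPM in shPML. Its log2 fold change was -2.91 ± 0.12 (SE; edgeR, adjusted p = 7.71e-28), with -2.95 in replicate 1 and -2.87 in replicate 2. SHPK, the sedoheptulose kinase, was at 7.57 and 8.47 CPM in shCTRL and at 1.69 and 1.53 CPM in shPML (-2.30, adjusted p = 4.75e-10; -2.16 in replicate 1), though 74.4% of its exon bases are shared on the same strand, TRPV1 among the genes it overlaps. H6PD, which runs the oxidative steps in the endoplasmic reticulum, fell by 1.00 on the log2 scale (-1.27 in replicate 1 and -0.72 in replicate 2).

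Among 11 other glycolysis genes tested, 2 were called higher and 2 lower. ADPGK, a glucose kinase that uses ADP, was at 67.5 and 71.1 CPM in shCTRL and at 34.2 and 31.4 CPM in shPML (-1.08, adjusted p = 5.45e-11; -0.98 in replicate 1). MINPP1, a phosphatase of inositol phosphates and of 2,3-bisphosphoglycerate, was called lower (-0.73; -0.70 in replicate 1). TIGAR, a p53 target that removes fructose 2,6-bisphosphate, was called higher (0.76, adjusted p = 0.000364), with 0.43 in replicate 1 and 1.10 in replicate 2, and shares 18.6% of its exon bases with another gene on the same strand. Of 11 other sugar and lactate transport genes tested, 2 were called higher and 1 lower. TXNIP, an arrestin-like protein that lowers glucose uptake, was at 167 and 136 CPM in shCTRL and at 259 and 212 CPM in shPML (0.64 in each experiment). SLC5A2, the sodium-glucose carrier SGLT2 of the kidney, stood at 1.22 to 4.84 CPM and was called higher (1.31), with 0.67 in replicate 1 and 1.98 in replicate 2, and 42.2% of its exon bases are shared with genes on the other strand. SLC2A13, a carrier of myo-inositol, was called lower (-0.52, adjusted p = 0.024), with -0.75 in replicate 1 and -0.28 in replicate 2. The calls of SLC5A2 and SLC2A13 were lost with DESeq2 and the block (adjusted p = 0.0508 and 0.173).

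Of 12 genes of the pyruvate dehydrogenase complex and of pyruvate entry, 1 was called higher and 3 lower. PDP1, the phosphatase that reverses the action of the PDK kinases, was at 63.2 and 68.1 CPM in shCTRL and at 147 and 150.4 CPM in shPML (1.18 ± 0.11, SE; edgeR, adjusted p = 6.27e-14; 1.22 in replicate 1). It was thus called in the same direction as PDK2, the kinase. PDHX, a structural subunit of the complex, and PDPR, the regulatory subunit of the phosphatase, a gene with near-identical copies in the genome, were called lower (-0.77 and -0.71; -0.70 and -0.73 in replicate 1). Of 22 genes listed for the citric acid cycle, 0 were called higher and 2 lower. These were IDH1, the cytosolic isocitrate dehydrogenase and not itself an enzyme of the cycle (-0.57, with -0.59 in replicate 1), and the complex II subunit SDHD (-0.56, with -0.40 in replicate 1). Of 3 gluconeogenesis genes tested, only SLC37A4, the carrier of glucose 6-phosphate into the endoplasmic reticulum, was called (-0.62; -0.61 in replicate 1). Among 17 genes of glycogen and side branches, 1 was called higher and 3 lower. The latter were GPD2, the mitochondrial glycerol 3-phosphate dehydrogenase (-0.73; -0.80 in replicate 1), and the serine and glycine synthesis enzymes PSAT1 (-0.68) and SHMT2 (-0.63), both at -0.55 in replicate 1.

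Of 19 regulators of glycolytic transcription tested, 2 were called higher and 1 lower. KLF4, a zinc finger factor, was at 2.49 and 2.19 CPM in shCTRL and at 5.05 and 12.5 CPM in shPML (1.74, adjusted p = 6.55e-07), with 1.01 in replicate 1 and 2.51 in replicate 2. EGLN3, a prolyl hydroxylase that acts on hypoxia-inducible factors and is itself induced by them, was called higher (0.63; 0.70 in replicate 1). ARNT2, a partner subunit of those factors, was called lower (-0.61; -0.68 in replicate 1).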

How the data were processed

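RNA-seq was analysed in 2 shCTRL and 2 shPML libraries of RCC4 cells. The deposited values are raw counts: the authors made stranded mRNA libraries, read them single-end at 100 nt, trimmed the reads (Trimmomatic 0.39), aligned them to GRCh38 (STAR) and counted them per Gencode gene (featureCounts 1.6.4, strand setting not given in the sources used here). The submitters had swapped the labels of shPML replicate 1 and shCTRL replicate 2, and the corrected labels were used. Columns without a number were taken as replicate 1, the only sample left in each condition.

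Genes passing filterByExpr (16516) were tested after TMM normalisation with edgeR 4.0.16 in R 4.3.3 (quasi-likelihood test, Benjamini-Hochberg adjustment over all genes), with the experiment as a block. Called genes had adjusted p below 0.05 and a log2 fold change past 0.5 in size, as in the study. The block was used because the experiments were independent infections. It was made the main fit after earlier results, including the authors' own table of fold changes and p-values, had been read and were known to give many more calls with it (1415 genes higher and 1735 lower, against 13 and 55 without). Replicate 1 libraries deviated together from their group means (correlation 0.546 across genes). The 31 genes and all lists were likewise chosen with earlier results of these data known. Named genes are all 31, PML and up to 3 called genes per other list with the largest change, while HK3 and the myeloid markers were chosen after their values were seen. PGLS and G6PC1 were not analysed here. Alternatives used DESeq2 1.42.0, limma 3.58.1, other normalisations, filters and thresholds, no block, and each library left out. The fits were also run on simulated data, whose settings favour the block and so cannot decide between the fits. P-values of the main fit leave out differences in level between the 2 infections. They rest on how far the change in shPML differed between the infections, with 1 residual degree of freedom and spread shared across genes.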

Additional observations from a re-analysis of the deposited data

Results flagged for a closer look

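Reads of myeloid markers stood out in shPML replicate 2, in genes outside the comparison of the pathway. The summed level of the 15 markers was 319 CPM there, against 2.90 and 3.69 CPM in the control libraries and 3.39 CPM in shPML replicate 1. In the same library HK3, the hexokinase known from leukocytes, had 220 reads, against 0, 5 and 6 in the other libraries, and FBP1 had 33. C1QB, a macrophage marker, had 0 reads in it.

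In 5 genes the ratio of shPML to shCTRL had opposite signs in the 2 experiments, a difference that was not tested. The log2 ratios in replicates 1 and 2 were -0.15 and 0.23 for PFKFB2, 0.026 and -0.16 for TPI1, 0.037 and -0.18 for PGK1, 0.10 and -0.00037 for PGAM1, and 0.086 and -0.12 for TALDO1.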

How the results depend on the processing

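Without the replicate block, edgeR called 1 of the 30 genes higher and 0 lower (unadjusted p under 0.05 in 4 and 3), 13 and 55 of all genes, and 0 and 1 of the other pathway genes, and PML was at -0.69 (adjusted p = 0.320). DESeq2 without the block called 578 and 894 of all genes and 5 of the 6 called genes, PFKL being the exception, with PML at -0.67 (adjusted p = 0.221). Without the block and without 1 library in turn, assuming the lone library to vary like the others, edgeR called 0 to 1 of the 30 higher and 0 lower, 0 to 187 and 0 to 61 of all genes, and PML ranged from -1.06 to -0.40 (adjusted p from 0.287 to 0.834). With no threshold of size, 14 of the 30 were higher and 5 lower and 2391 of all genes higher. With a threshold of 1, 2 of the 30 were higher and 0 lower, and 550 of all genes were called higher and 646 lower. The median over the 30 genes, 0.24, was 0.25 with DESeq2, RLE normalisation or at least 10 counts in every library (DESeq2 without the block as well), 0.27 with upper quartile, 0.26 with total counts only, 0.28 with no filter, and 0.13 to 0.28 with libraries or experiments left out. The lowest, 0.13, was without shPML replicate 2, and the cause was not tested. With the block, DESeq2 and limma voom kept all 6 calls, DESeq2 lost the calls of SLC5A2 and SLC2A13 and put LDHA and PDK3 over an adjusted p of 0.05, and none of the 6 genes changed direction under any alternative run. On simulated data with 196 of 16143 genes set to differ by a fold of 2, the edgeR fit with the block recovered 156 and made 17 false calls. DESeq2 recovered 125 with 2 false calls, and edgeR without the block recovered 0 with 0 false calls. How far these counts depend on the settings of the simulation was not tested. PFKM passed the threshold of size under 2 normalisations. With 2 experiments, the fit with the block rests on 1 residual degree of freedom and on the spread shared across genes.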
